A study of Mus musculus with 22 samples.

Results

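The genes described here encode the factors that carry a ribosome through initiation, elongation and termination of translation. They were chosen by symbol: genes with at least 1 protein-coding transcript whose name begins with Eif1 to Eif6, Eef1a, Eef1b, Eef1d, Eef1g or Eef2, together with Etf1, Gspt1, Gspt2, Pabpc1 and Pabpc4, leaving out the eIF2 kinases and the Y-linked Eif2s3y. This gave 70 of the 55385 genes in the tables, of which 21804 have a protein-coding transcript. The name rule also brought in enzymes that modify elongation factors and proteins that bind eIF4E.

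The study profiled ribosome-bound mRNA with RiboTag, in which Cre recombinase switches on an HA-tagged copy of the ribosomal protein RPL22, so that ribosomes of the Cre-expressing cells and the mRNA on them can be pulled down with antibody. All mice were 6 weeks old, carried Rpl22 Fl/+ and 1 Cre driver, and gave 3 libraries per cell type. Rbp4-cre was used for dentate gyrus granule cells (hippocampus) and for layer V cortical neurons (cortex), Gabra6-cre for cerebellar granule cells (cerebellum) and Dlx6a-cre for inhibitory interneurons (hippocampus), each interneuron library holding 2 mice. Astrocytes (Aldh1-cre in the labels, an Aldh1l1 line in the methods) and microglia (Tmem119-cre) came from cortex, with inducible Cre switched on by tamoxifen. All interneuron and microglial libraries were sequenced in batch 2 and the others in batch 1, with 1 replicate of each batch 1 cell type sequenced again in batch 2. No group without Cre was used here, and neurons and glia each stand for the mean of their cell types.

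In initiation, eIF2 brings the initiator tRNA to the small ribosomal subunit, where eIF1, eIF1A and the many subunits of eIF3 hold it open for scanning, while eIF4E binds the mRNA cap, eIF4G bridges cap and ribosome and the helicase eIF4A unwinds the leader. In elongation, eEF1A delivers charged tRNA, the eEF1B complex recharges eEF1A with GTP, and eEF2 moves the ribosome by a codon. Mice have 2 eEF1A genes, Eef1a1, used widely, and Eef1a2, known from neurons and muscle. Release needs eRF1, encoded by Etf1, and the GTPase eRF3, encoded by Gspt1 or Gspt2.

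Markers of each named cell type were highest in its own libraries, with the exception of the layer V list. The summed TPM (a level scaled by transcript length and library total) of Fezf2, Bcl11b, Etv1 and Rbp4 was 249 to 263 in layer V neurons and 712 to 745 in cerebellar granule cells, where Fezf2 was at 0; Fezf2 had its highest mean in layer V neurons (85.5 TPM), whereas Bcl11b was at 34.3 there and 159.5 in dentate gyrus granule cells, Rbp4 at 52.2 there and 87.0 in interneurons and Etv1 at 82.5 there and 728 in cerebellar granule cells. The neuronal list (Rbfox3, Snap25, Syt1 and Map2) summed to 3373 to 12740 TPM in neuronal libraries, 814 to 1052 in astrocytes and 342 to 385 in microglia, with none of its genes at 0. Of the oligodendrocyte markers, Mbp was at 1184 TPM on average in interneurons, 477 in astrocytes, 212 in microglia and 65.2 to 179 in the other neurons, and Mobp and Mog were likewise at their highest mean in interneurons (222 and 68.4 TPM). The endothelial list (Cldn5, Flt1, Pecam1 and Slco1c1) summed to 168 to 250 TPM in the glial libraries and 3.05 to 23.4 in the neuronal ones. In astrocytes most of that sum was Slco1c1, at 153 TPM on average, with Cldn5, Flt1 and Pecam1 at 16.9, 6.66 and 4.34. In microglia all of them averaged 40.5 to 65.2 TPM. The part of these markers in the results below was not tested, except where a value is given. Library totals ran from 38270477 to 71440915 estimated counts.

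Of the 70 members, 66 passed the filter on low counts among 20524 genes tested. The 4 that did not were Eef1akmt3, Eif4e1b, Eif4a3l1 and Eif4a3l2, none above 0.294 TPM in any library. The 70 genes together took 0.884% to 1.48% of a library's TPM. That share was lowest in astrocytes, at 0.884% to 0.894%, and highest by the median of 3 libraries in dentate gyrus and cerebellar granule cells, at 1.26% to 1.48%. The most abundant were Eef1a1 (mean over the 6 cell types 2159 TPM), Eef1a2 (1300 TPM), Eif4a2 (1008 TPM) and Eef2 (737 TPM), and 28 members were at 100 TPM or more. Replicates lay close together, with a median coefficient of variation over members of 3.17% to 7.0% per cell type.

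A gene was called when its adjusted p was at most 0.05 and its log2 fold change at least 0.5 in size, the size the study asked of its tRNA families, in edgeR's quasi-likelihood test over all genes. Over the 6 cell types, where the range between the highest and the lowest type took the place of the fold change, 61 of 66 members were called, beside 96.5% of all genes. The median log2 range of the members was 0.94 against 2.76 over all genes. The 5 not called were Eif1, Eif2b2, Eif3h, Eif3k and Eif3m, whose log2 ranges were 0.24 to 0.49. Eif1, which guards start codon choice, was at 728, 641, 633, 583, 579 and 477 TPM on average in dentate gyrus, layer V, cerebellar granule, interneuron, astrocyte and microglial libraries.

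**Figure D1:**
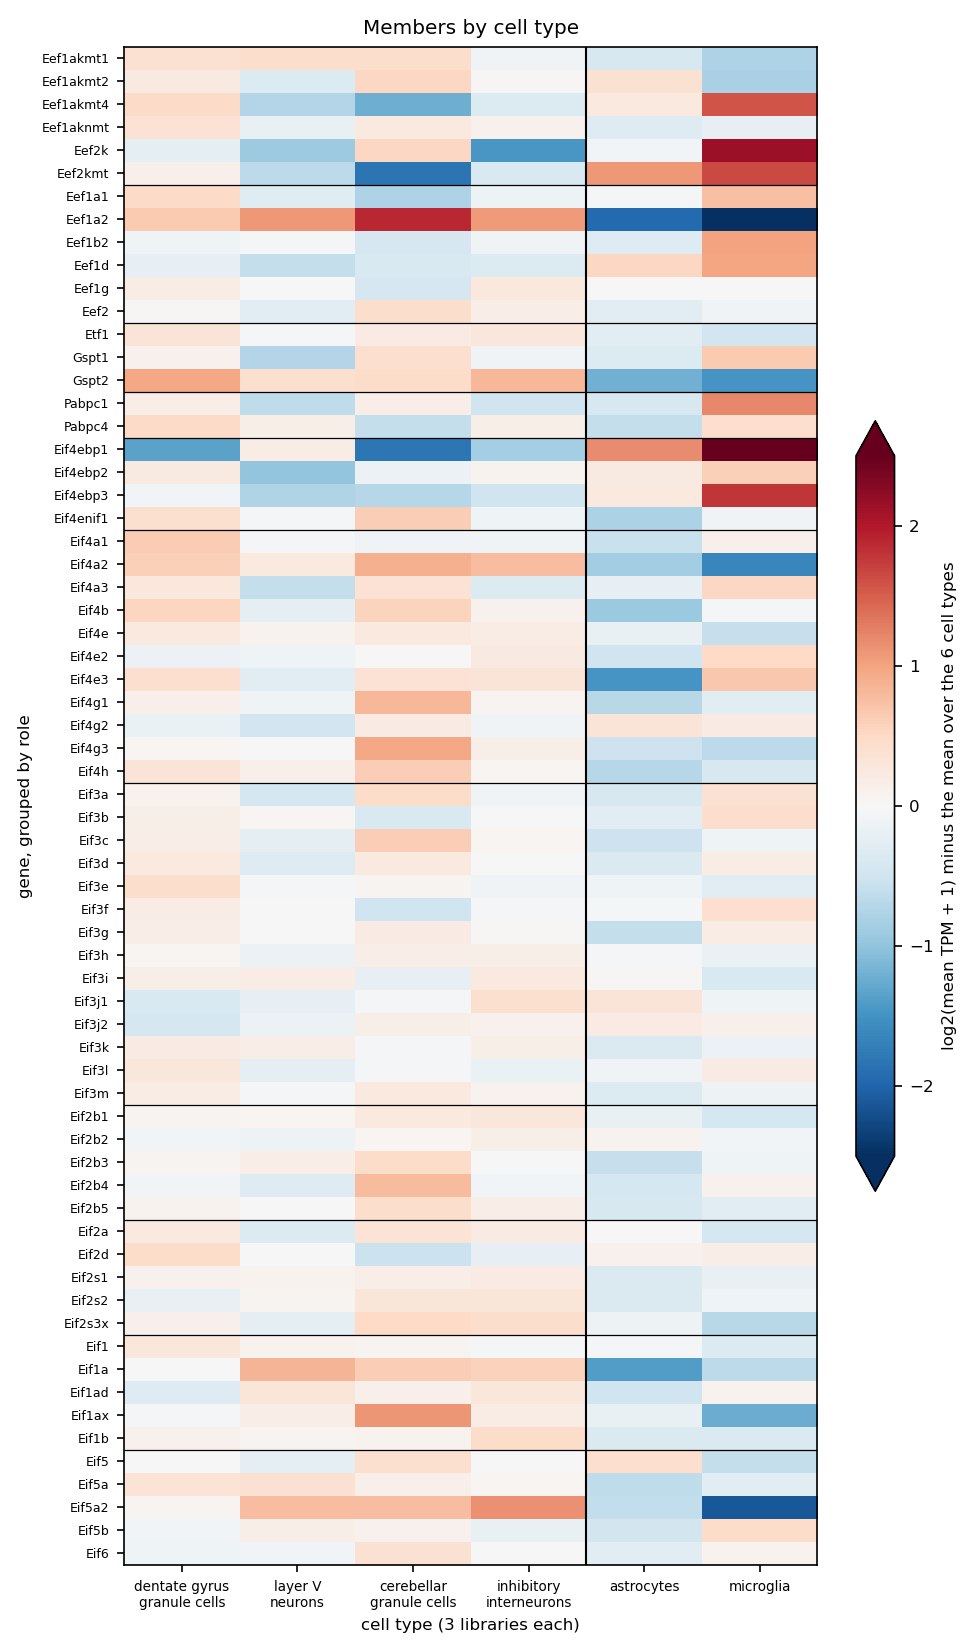
Heat map of the 66 tested members, grouped by role in rows, in the 6 cell types in columns (means of 3 libraries). Colour gives log2(mean TPM + 1) minus the gene's mean over the 6 types. Most rows are pale, while Eef1a2, Eif4ebp1, Eef2k, Eef2kmt, Eif4a2, Gspt2 and Eif5a2 show strong colour.

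The eEF1A genes were the most abundant members. Eef1a1 lies at chr9:78478449-78489151 and Eef1a2 at chr2:181147653-181157014, both on the minus strand of GRCm38. Eef1a2 stood at 3008, 2932 and 2843 TPM in the 3 cerebellar granule cell libraries, at 1679, 1673 and 1632 in layer V neurons, at 1097, 1325 and 1287 in dentate gyrus granule cells and at 1623, 1637 and 1697 in interneurons. It was at 215, 217 and 180 TPM in astrocytes and at 114, 123 and 112 in microglia, so every glial library lay below every neuronal one. The log2 fold change, glia minus neurons, was -3.29 ± 0.04 (SE; edgeR adjusted p = 4.91e-21), a 9.79-fold lower level in glia.

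Eef1a1 did not follow that division. Its levels were 3567, 3399 and 3267 TPM in microglia, 2601, 3237 and 2705 in dentate gyrus granule cells, 1907, 2030 and 2059 in astrocytes, 1735, 1950 and 1874 in interneurons, 1635, 1693 and 1637 in layer V neurons and 1201, 1171 and 1186 in cerebellar granule cells. Microglia were highest and cerebellar granule cells lowest, and astrocytes lay among the neuronal types. Glia exceeded neurons by 0.76 ± 0.04 on the log2 scale (edgeR adjusted p = 1.72e-11), although the libraries of the groups overlapped. Without microglia the difference was 0.41 and within batch 1, which holds astrocytes and 3 neuronal types, 0.46, both under the fold minimum.

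Neighbours in the order of Eef1a1 levels were compared in the same fit. Microglia exceeded dentate gyrus granule cells by 0.47 ± 0.07 and dentate gyrus granule cells exceeded astrocytes by 0.19 ± 0.07 (log2, edgeR adjusted p = 1.54e-05 and 0.0295), both below the fold minimum. Astrocytes exceeded interneurons by 0.51 ± 0.07 (adjusted p = 7.96e-06) and layer V neurons exceeded cerebellar granule cells by 0.67 ± 0.07 (adjusted p = 2.48e-07). Interneurons and layer V neurons did not pass the test (adjusted p = 0.0977), and the count-based estimate of -0.15 ± 0.07, interneurons minus layer V neurons, ran against the order of their TPM. In the order of Eef1a2 levels, cerebellar granule cells exceeded layer V neurons by 0.68 ± 0.06 (adjusted p = 3.56e-09), dentate gyrus granule cells exceeded astrocytes by 2.26 ± 0.06 (adjusted p = 2.63e-16) and astrocytes exceeded microglia by 0.89 ± 0.06 (adjusted p = 8.21e-11). Layer V neurons against interneurons (0.28) and interneurons against dentate gyrus granule cells (0.37) differed with adjusted p of 2.58e-04 and 1.41e-05 but stayed under the fold minimum.

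Expressed as a share of the TPM of both genes, Eef1a2 made up 71.5%, 71.5% and 70.6% in cerebellar granule cells, 50.7%, 49.7% and 49.9% in layer V neurons, 29.6%, 29.0% and 32.2% in dentate gyrus granule cells and 48.3%, 45.6% and 47.5% in interneurons. In astrocytes the share was 10.1%, 9.66% and 8.06%, and in microglia 3.10%, 3.49% and 3.31%. Granule cells of the cerebellum and of the dentate gyrus thus lay at the 2 ends of the neuronal range. The mean share was 6.29% in the 6 glial libraries and 49.7% in the 12 neuronal ones, a difference of -43.4 percentage points (two-sided exact permutation test over libraries, p = 5.39e-05, the smallest this design allows). With the 6 cell types as the unit the smallest two-sided exact permutation p is 0.0667, which is what was found. The summed TPM of both genes ran from 2122 to 2248 in astrocytes and from 3269 to 4561 in the other cell types.

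**Figure D2:**
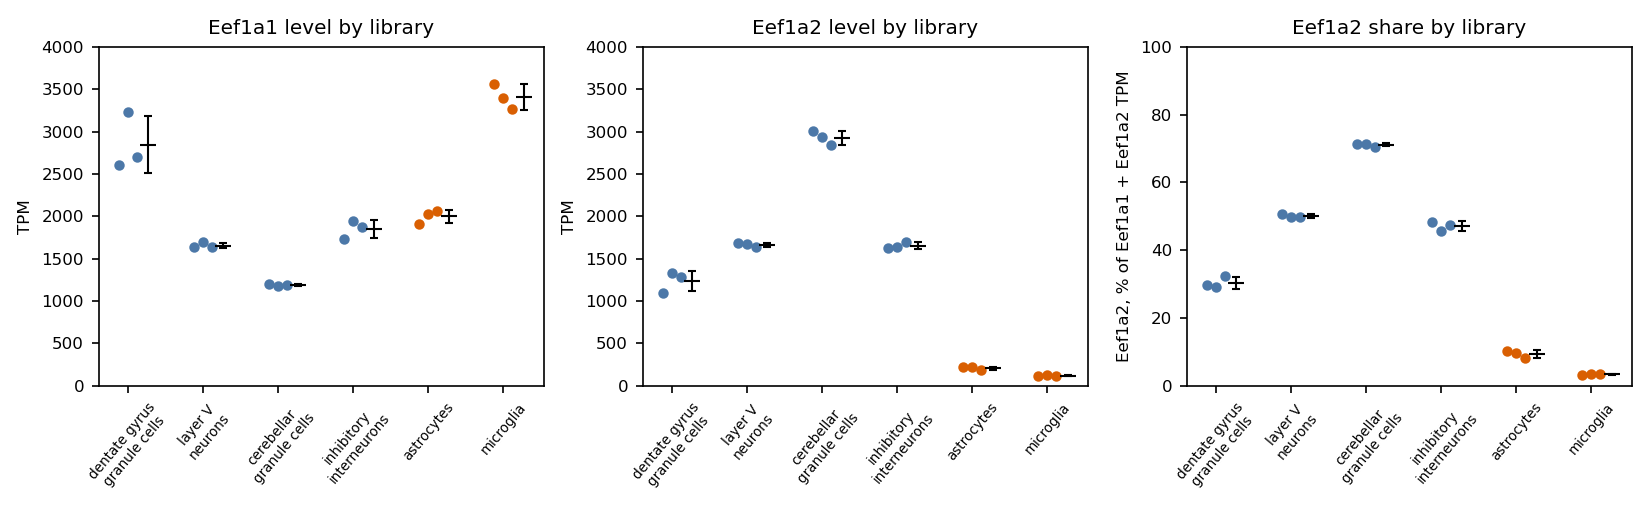
Eef1a1 level (left, TPM), Eef1a2 level (middle, TPM) and the Eef1a2 share of their summed TPM (right, %) in each of the 18 libraries, neurons in blue and glia in orange; black marks give mean ± SD of 3 libraries. Eef1a2 shares run from 3.10% in a microglial library to 71.5% in cerebellar granule cells.

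Eef1a2 in glia can be read beside the neuronal marker RNA in the same libraries. Set against layer V neurons of the same tissue, Eef1a2 was at 12.3% of the neuronal level in astrocytes and 7.01% in microglia. Rbfox3 was at 14.9% and 14.01%, Snap25 at 10.3% and 3.91%, Syt1 at 18.03% and 7.24% and Map2 at 49.6% and 8.76%. For Eif4a2 the shares were 45.7% and 27.1% and for Gspt2 30.9% and 24.8%. How much of these levels came with neuronal RNA was not tested. In these bulk libraries fewer cells of a type and less RNA per cell cannot be told apart. Eef1a1 shares sequence with 14 other genes at 5% or more of its 31-base words, mostly processed copies, whose summed level was 1.08 to 29.7 TPM, at most 0.91% of Eef1a1. Eef1a2 shared none.

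Between glia and neurons as a whole, 10 members were higher in glia (15.2% of the members tested, beside 39.1% of all genes) and 13 lower (19.7%, beside 26.8%). The median log2 fold change was -0.09 over members and 0.18 over all genes. The 6 glial libraries lay entirely above the 12 neuronal ones for 3 of 66 members, beside 12.7% of all genes, and entirely below for 14, beside 11.3%. The direction depended in part on scaling: with upper-quartile factors 14 were higher and 10 lower, and on log2(TPM + 1) 10 were higher and 20 lower, with the median of all genes at -0.05. The replicate error behind these tests is that between libraries of 1 cell type, so a call says that these cell types differed, and not that glia and neurons differ in general.

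**Figure D3:**
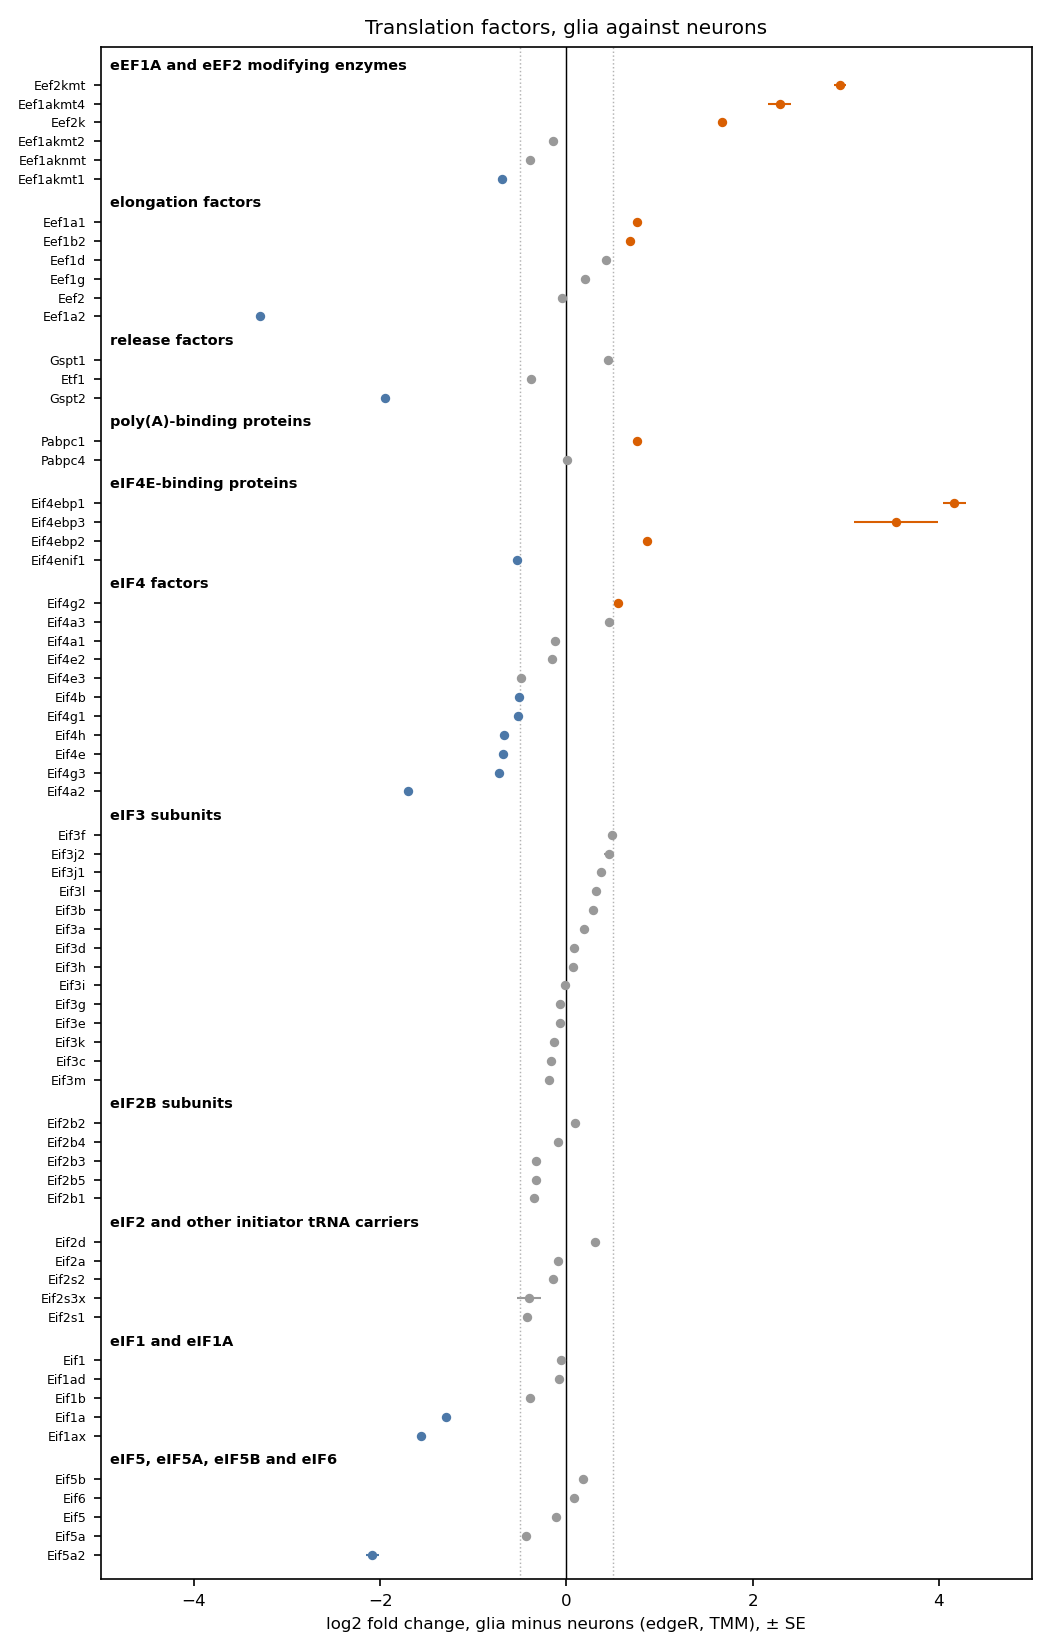
Log2 fold change, glia minus neurons, with SE, for the 66 tested members grouped by role; orange marks genes called higher in glia, blue those called lower and grey those not called, with dotted lines at the fold minimum of 0.5. The 14 eIF3 subunits, 5 eIF2B subunits and 5 initiator tRNA carriers all lie between the dotted lines, while modifying enzymes and eIF4E-binding proteins spread widely.

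Between glia and neurons the large initiation complexes had no called member. None of the 14 eIF3 subunits was called, with log2 fold changes of -0.18 to 0.49, nor any of the 5 subunits of eIF2B, the exchange factor that recharges eIF2 (-0.34 to 0.10), nor any of 5 genes for eIF2 and other carriers of initiator tRNA (-0.42 to 0.31), beside 39.1% of all genes higher and 26.8% lower. In other comparisons some were called. Of the eIF3 subunits, 1 was higher (33.1% of all genes) and 3 lower (30.0%) in astrocytes than in microglia. In cerebellar granule cells 2 were higher (25.3%) and 1 lower (35.9%), and in dentate gyrus granule cells 2 were lower (16.2%). Those lower in dentate gyrus granule cells were Eif3j1 and Eif3j2, and the subunit higher in astrocytes was Eif3j1. Eif3j2 shares 93.95% of its 31-base words with Eif3j1, so the division of reads between them is uncertain and their calls may not be separate. Over the 6 cell types 11 of 14 were called, beside 96.5% of all genes. Eif3h was at 178, 156, 194, 190, 167 and 154 TPM on average in dentate gyrus, layer V, cerebellar granule, interneuron, astrocyte and microglial libraries. Among eIF1 and eIF1A genes, Eif1ax and Eif1a, which encode forms of eIF1A, were lower in glia by 1.56 ± 0.03 and 1.29 ± 0.03 (log2, edgeR adjusted p = 9.22e-18 and 1.02e-16), while Eif1, Eif1ad and Eif1b were not called. Eif1ax was at 174, 167 and 171 TPM in cerebellar granule cells, 69.8, 65.2 and 72.3 in astrocytes and 35.0, 32.6 and 31.04 in microglia.

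Of the 11 eIF4 factors tested, 6 were lower in glia (26.8% of all genes were) and 1 was higher (39.1% of all genes were). The helicase gene Eif4a2 (chr16:23107444-23114136, plus strand) stood at 1539, 1536 and 1638 TPM in cerebellar granule cells, 1002, 1011 and 1021 in layer V neurons, 1215, 1362 and 1278 in dentate gyrus granule cells and 1339, 1495 and 1497 in interneurons. Astrocytes were at 457, 507 and 424 TPM and microglia at 285, 271 and 265, with no overlap, and the log2 difference was -1.70 ± 0.03 (edgeR adjusted p = 1.34e-18). Its paralogue Eif4a1 was not called. The scaffold gene Eif4g3 (-0.72 ± 0.04, adjusted p = 2.04e-12) and the cap-binding Eif4e (-0.69 ± 0.02, adjusted p = 6.56e-15) were also lower. Eif4e was at 136, 131 and 124 TPM in astrocytes and 96.0, 95.4 and 106 in microglia against 151 to 189 in neuronal libraries, and the log2 difference was -0.37 without microglia and -0.33 within batch 1, under the fold minimum. Eif4h, Eif4g1 and Eif4b, outside the rule for named genes, were lower by 0.67, 0.52 and 0.51. With DESeq2, RLE and upper-quartile factors Eif4g1 (-0.49, -0.49 and -0.46) and Eif4b (-0.48, -0.48 and -0.46) were under the minimum. Eif4g2, an eIF4G relative that lacks the eIF4E-binding part, was higher by 0.56 ± 0.03 (adjusted p = 3.90e-12), with overlap, and fell under the minimum in 6 of the alternatives run, as low as 0.40 on log2(TPM + 1), among them the fit without astrocyte replicate 3 (0.50).

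Of the 4 proteins that bind eIF4E, 3 were higher in glia (39.1% of all genes were) and 1 lower (26.8%). Eif4ebp1, the repressor released when mTORC1 phosphorylates it, was at 8.07, 7.39 and 8.35 TPM in astrocytes and 26.0, 22.8 and 22.4 in microglia. Layer V neurons had 2.85, 3.97 and 3.59 TPM, interneurons 1.57, 1.12 and 0.92, dentate gyrus granule cells 0.79, 0.53 and 0.35 and cerebellar granule cells 0.10, 0.04 and 0.24. All glial libraries lay above all neuronal ones, by 4.17 ± 0.12 on the log2 scale (edgeR adjusted p = 6.18e-16). Eif4ebp2, the form known to predominate in brain, was at 26.3, 23.8 and 26.0 TPM in astrocytes, 35.1, 33.0 and 32.2 in microglia and 10.2 to 27.0 in neurons, and was higher in glia by 0.87 ± 0.04 (adjusted p = 1.60e-13). Eif4ebp3 was scarce, at most 7.90 TPM, and was higher by 3.54 ± 0.45 (adjusted p = 1.05e-06) with overlap. It shares 66.4% of its 31-base words with the overlapping gene AC115631.1, at 2.91 to 20.96 TPM, so the division of reads between them is uncertain. Eif4enif1, which carries eIF4E into the nucleus, was lower in glia by 0.54 ± 0.03 (adjusted p = 9.12e-12), with overlap; with upper-quartile factors, the stricter count filter, without astrocytes or without cerebellar granule cells it was -0.48, -0.48, -0.21 and -0.43, under the minimum.

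Among enzymes that act on elongation factors, 3 of 6 tested were higher in glia (39.1% of all genes were) and 1 lower (26.8%). Eef2k, the kinase that inhibits eEF2, was at 162, 171 and 175 TPM in microglia, 53.9, 57.9 and 51.2 in cerebellar granule cells and 37.6, 32.2 and 37.4 in astrocytes. It was at 32.8, 32.7 and 30.8 in dentate gyrus granule cells, 18.9, 19.7 and 19.9 in layer V neurons and 14.1, 12.5 and 13.03 in interneurons. The log2 difference of 1.68 ± 0.04 (edgeR adjusted p = 5.53e-18) rested largely on microglia: without them it was 0.63 and within batch 1 it was 0.31. Eef2kmt, a lysine methyltransferase of eEF2, was at 11.3, 10.6 and 10.02 TPM in astrocytes, 16.1, 16.0 and 15.9 in microglia and 0.48 to 5.17 in neurons, with no overlap (2.94 ± 0.07, adjusted p = 2.15e-17). It shares 16.3% of its 31-base words with Alg1, at 29.9 TPM in glia and 20.3 in neurons. Eef1akmt4 was higher by 2.29 ± 0.12 (adjusted p = 4.68e-12), at most 9.74 TPM, and shares 29.1% of its 31-base words with Gm49333, so reads of both may have been divided between such neighbours. Eef1akmt1 was lower by 0.69 ± 0.04 (adjusted p = 2.80e-11), and by 0.45, under the minimum, without microglia.

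Of the other elongation factors, Eef1b2, Eef1d, Eef1g and Eef2, 1 was called, as higher in glia (39.1% of all genes were higher and 26.8% lower). Eef1b2, which encodes the nucleotide exchange subunit of eEF1B, was at 544, 568 and 550 TPM in microglia and 218, 220 and 220 in astrocytes, against 204 to 285 in neurons, and was higher in glia by 0.68 ± 0.04 (edgeR adjusted p = 4.52e-12). Only the microglial libraries lay above the neurons, and without them the difference was 0.09. Eef2 was at 600, 578 and 613 TPM in astrocytes, 714, 693 and 651 in microglia and 602 to 1023 in neurons and was not called, nor was Eef1g. Pabpc1, which binds the poly(A) tail, showed the same dependence: it was at 415, 404 and 380 TPM in microglia, 131, 116 and 145 in astrocytes and 107 to 209 in neurons. Its log2 difference of 0.76 ± 0.04 (adjusted p = 8.26e-12) turned to -0.05 without microglia and -0.13 within batch 1.

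Gspt2 and Eif5a2, a pair of scarcer paralogues, were lower in glia while their abundant partners stayed under the fold minimum. Gspt2 was at 44.5, 48.5 and 43.3 TPM in dentate gyrus granule cells, 29.9 to 42.6 in the other neurons, 9.81, 9.78 and 8.50 in astrocytes and 6.82, 7.75 and 7.92 in microglia (-1.94 ± 0.04, edgeR adjusted p = 2.63e-18). Eif5a2, a paralogue of the hypusine-bearing factor eIF5A, was at 32.8, 39.6 and 36.5 TPM in interneurons, 14.7 to 29.8 in the other neurons, 10.4, 11.1 and 8.44 in astrocytes and 2.44, 3.34 and 2.77 in microglia (-2.08 ± 0.07, adjusted p = 2.99e-15). Neither showed overlap between glia and neurons. Gspt1 and Etf1 were at +0.45 and -0.38 and Eif5a at -0.43, under the fold minimum.

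Shares within paralogue pairs set the cell types in different orders, and are given as a description. Eif4a2 made up 82.6% ± 1.06 (SD, n = 3) of the TPM of Eif4a1 and Eif4a2 in cerebellar granule cells, 81.3% ± 0.75 in interneurons, 74.5% ± 0.56 in layer V neurons, 70.1% ± 0.39 in dentate gyrus granule cells, 66.0% ± 1.83 in astrocytes and 41.7% ± 0.91 in microglia, the only type with less Eif4a2 than Eif4a1. Gspt2 made up 25.4% to 42.3% of the Gspt pair on average in neuronal types, 14.7% in astrocytes and 6.40% in microglia. Eif1a made up 38.3% of the eIF1A pair in microglia and 14.6% in astrocytes, so the glial types lay on either side of the dentate gyrus and cerebellar granule cells (30.0% and 22.8%). Transcripts not annotated as protein-coding entered these shares: with protein-coding transcripts only, computed after these values were seen, the Eif1a share was 56.6% ± 0.66 in microglia, above every neuronal type (22.8% to 40.3%), and 18.2% in astrocytes. The Eif4a2 share was then 54.9% to 74.3% in neuronal types, 55.6% in astrocytes and 26.6% in microglia. Pabpc4 was the lesser partner of Pabpc1 in every type, at 20.6% in layer V neurons and 7.89% in cerebellar granule cells. Eif4a1 shares sequence with 3 processed copies, whose summed TPM ran from 0 in a layer V library to 114 in a microglial one, up to 31.5% of Eif4a1, so its own level is uncertain.

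**Figure D4:**
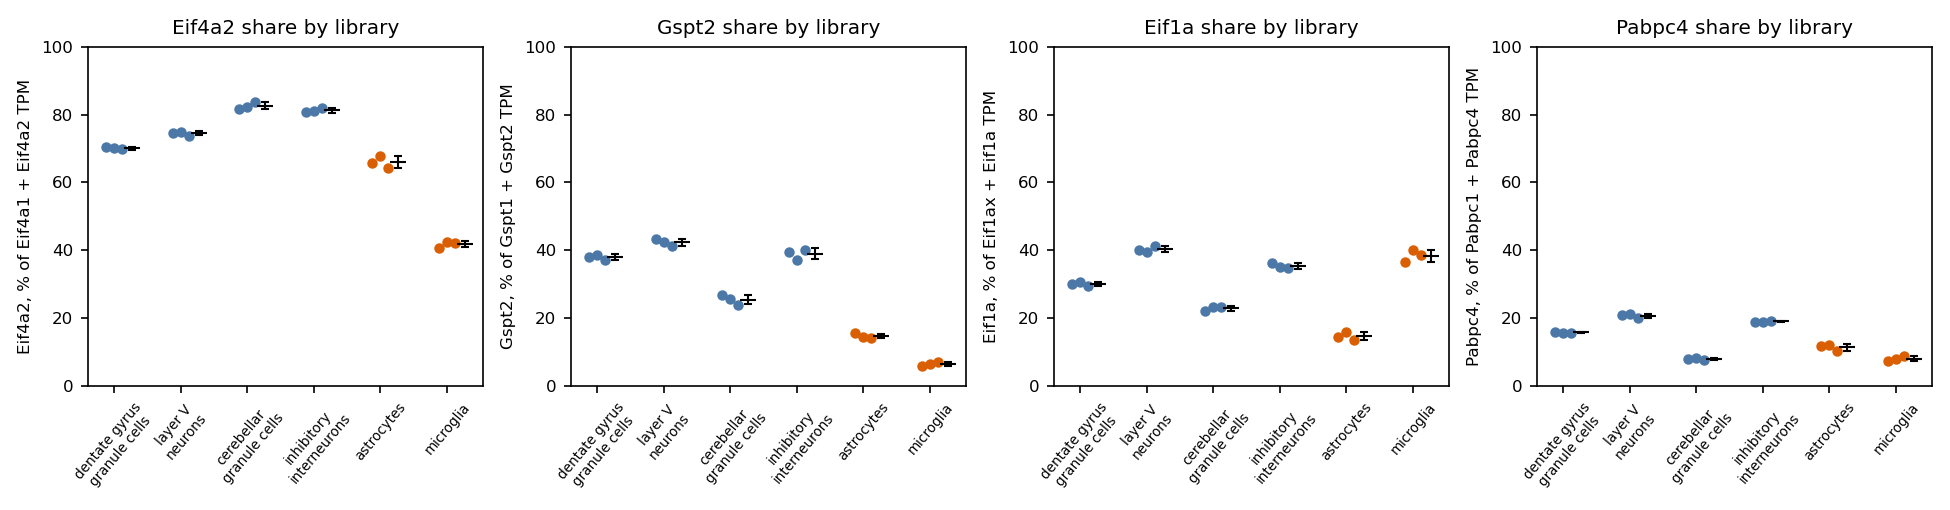
Share of the second paralogue in the summed TPM of a pair (%), by library, for Eif4a2, Gspt2, Eif1a and Pabpc4; neurons in blue, glia in orange, black marks mean ± SD of 3 libraries. Microglia are lowest for Eif4a2 (41.7%) and Gspt2 (6.40%), while for Eif1a they lie at 38.3%, within the neuronal range, and at 56.6% with protein-coding transcripts only, which is not plotted.

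The makeup of several members by transcript also differed between cell types. A pair of exons is shown, each present in 1 and absent from the other of a pair of transcripts whose shares differed; the paired transcripts differ elsewhere too. In Eif4g1, 21 coding bases form a microexon at chr16:20674786-20674806 (GRCm38, plus strand), present in transcript Eif4g1-201 and absent from Eif4g1-202; the spliced sequences are given with 30 bases on either side and the microexon in capitals.

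Eif4g1-201: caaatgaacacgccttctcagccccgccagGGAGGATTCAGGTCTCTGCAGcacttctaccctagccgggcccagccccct
Eif4g1-202: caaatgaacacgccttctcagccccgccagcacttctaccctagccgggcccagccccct

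In Eef1d, which encodes another exchange subunit of eEF1B, transcript Eef1d-204 holds an exon of 1130 bases at chr15:75902679-75903808 (minus strand) that is coding throughout and gives it a coding length of 1980 bases, against 771 in Eef1d-207, which lacks it. Its first 60 bases, with the start codon in capitals, are as follows.

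Eef1d-204: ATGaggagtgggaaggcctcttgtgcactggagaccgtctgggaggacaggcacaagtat

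The Eif4g1 microexon was found in 5 annotated transcripts and skipped by 14. Transcripts with it took 67.6%, 79.3% and 63.8% of the TPM of both kinds in dentate gyrus granule cells, 78.01%, 69.9% and 72.7% in cerebellar granule cells, 68.1%, 71.4% and 66.1% in interneurons and 44.9%, 45.7% and 44.4% in layer V neurons. The share was 17.3%, 16.7% and 18.8% in astrocytes and 13.9%, 10.8% and 10.6% in microglia. Every glial library was below every neuronal one, and layer V neurons were below the other neurons. Eif4g1-202 itself was listed at 33.7% of the gene's TPM in astrocytes and 24.9% in microglia, and at no more than 0.03% on average in any neuronal type. Eif4g3 also has a coding exon of 21 bases, whose mean use was 38.3% in microglia, 46.0% in astrocytes and 48.3% to 66.4% in neurons. The libraries overlapped, with astrocyte replicate 1 (49.8%) above dentate gyrus replicates 1 and 2 (47.8% and 46.8%). Coding exons of 16 and 5 bases in Eif4g3 did not divide glia from neurons. For both, microglia (25.5%) were above interneurons and layer V neurons (15.6% and 24.6%) and below dentate gyrus and cerebellar granule cells (28.8% and 29.3%). Astrocytes lay between interneurons and layer V neurons. The Eif4g3 exons were looked at after the values of Eif4g1 were seen.

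The long Eef1d exon was used in 59.1%, 57.7% and 53.4% of the TPM of spanning transcripts in cerebellar granule cells, 47.5%, 47.1% and 48.0% in interneurons, 44.4%, 40.3% and 44.8% in layer V neurons and 45.5%, 38.5% and 43.3% in dentate gyrus granule cells. It was used in 4.66%, 3.93% and 3.60% in astrocytes and 2.16%, 2.53% and 2.55% in microglia. The short Eef1d-207 took 41.3% of the gene's TPM in astrocytes, 48.8% in microglia and 10.5% to 20.0% in neuronal types. Eef1d also differed between scales. Its summed TPM was 195, 181 and 187 in astrocytes, 271, 261 and 248 in microglia and 84.0 to 128 in neurons. Its count-based log2 difference, which does not account for transcript length, was 0.43 ± 0.03 and under the fold minimum. The part of transcript length in this gap was not tested.

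**Figure D5:**
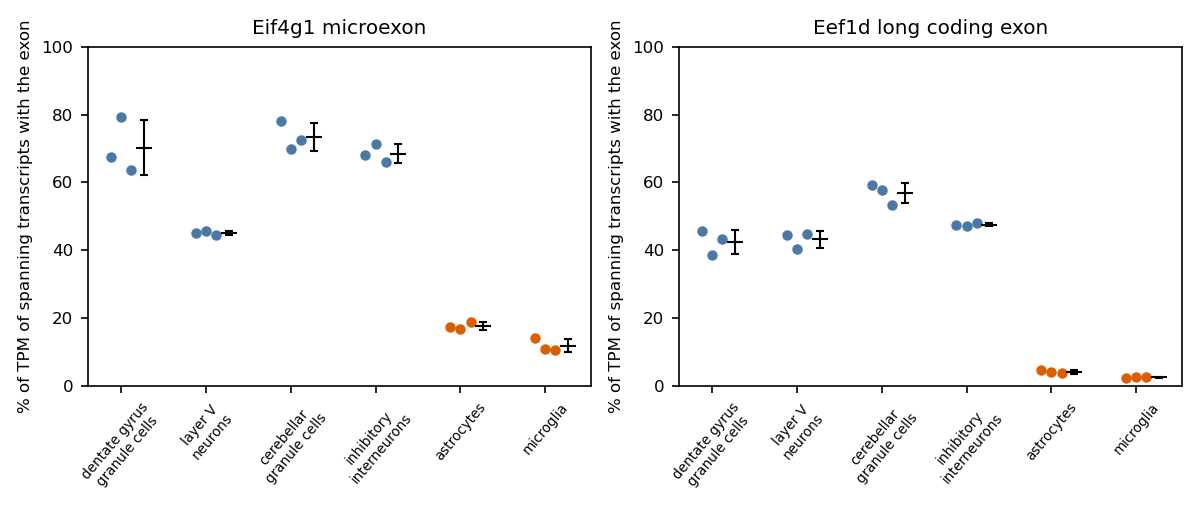
Share of TPM (%) carried by transcripts that contain the 21-base Eif4g1 microexon (left) or the 1130-base Eef1d exon (right), out of all transcripts of the gene that span the exon, by library; neurons in blue, glia in orange, black marks mean ± SD of 3 libraries. Glial libraries lie at 10.6% to 18.8% for Eif4g1 and at 2.16% to 4.66% for Eef1d, below all neuronal libraries.

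Other members whose transcript shares moved by at least 30 percentage points were Eif1ax, Gspt2, Gspt1, Eif4e2 and Pabpc4. For Eif1ax, the 416-base retained-intron model Eif1ax-202 took 52.4% of the gene's TPM in microglia and 23.0% in astrocytes and at most 0.29% in neuronal types, leaving 47.6% and 77.0% there for the protein-coding Eif1ax-201. For Gspt2 the transcript Gspt2-202, annotated for nonsense-mediated decay, took 36.4% in microglia, 11.3% in astrocytes and 3.15% to 6.83% in neuronal types. For the cap-binding homologue Eif4e2, the transcript Eif4e2-204 took 52.4% in microglia, 45.8% in astrocytes and 19.7% to 24.3% in neuronal types. Gspt1-201 took 67.1% in microglia and 26.0% to 42.5% elsewhere, Gspt1-205 taking most of the remainder, and Pabpc4-204 was at 51.7% in layer V neurons and 21.4% in microglia. These shares are divisions that the quantification made of reads common to several transcripts, not counts of reads particular to one of them.

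Between the glial types 33 members were called. Of 66 members, 11 were higher in astrocytes (16.7%, beside 33.1% of all genes) and 22 lower (33.3%, beside 30.0%), with a median log2 fold change of -0.20 against 0.04 over all genes; on log2(TPM + 1) the split was 7 and 24. All 3 microglial libraries were sequenced in batch 2 and the astrocyte libraries in batch 1. Within batch 2, where the sole astrocyte library is a repeat run of replicate 2 and is assumed to vary like the other groups, 8 members were higher and 24 lower. Higher in astrocytes were Eif5a2 (1.88 ± 0.11, edgeR adjusted p = 2.39e-11), Eif1ax (1.77 ± 0.05, adjusted p = 2.76e-15), Eef1akmt2 (1.24 ± 0.08, adjusted p = 2.45e-10) and Eif5 (0.98 ± 0.06, adjusted p = 9.14e-11), the GTPase activator of eIF2. Eif5 was at 290, 281 and 264 TPM in astrocytes and 141, 141 and 134 in microglia.

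Lower in astrocytes were Eif4e3 (-2.32 ± 0.07, adjusted p = 1.32e-15), a cap-binding relative of eIF4E, Eif4ebp3 (-2.14 ± 0.59, adjusted p = 0.0033), Eef2k (-2.07 ± 0.06, adjusted p = 2.04e-15) and Pabpc1 (-1.58 ± 0.07, adjusted p = 8.56e-13). Eif4e3 stood at 4.42, 4.17 and 3.59 TPM in astrocytes and 21.2, 21.9 and 20.97 in microglia, which were above all other libraries. Eif4ebp3 was no longer called within batch 2 (-1.26) or with batch as a term (-1.10). Eef1a1 was lower in astrocytes by 0.67 ± 0.08 (adjusted p = 2.79e-07) and Eef1a2 was higher by 0.89 ± 0.06 (adjusted p = 8.21e-11).

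Among neurons, each type was compared with the mean of the other 3 types, and cerebellar granule cells had the most calls. There 13 members were higher (19.7%, beside 25.3% of all genes) and 8 lower (12.1%, beside 35.9%), the members' median being 0.15 against -0.21 over all genes; with upper-quartile factors 9 were higher and 9 lower, within batch 2 21 and 5, and without cerebellar granule cell replicate 2 20 and 7. Leaving out any other library gave 12 to 18 higher and 7 to 10 lower. The largest increases were in Eef2k (1.64 ± 0.05, edgeR adjusted p = 9.20e-16), Eef1a2 (0.99 ± 0.04, adjusted p = 3.73e-13), Eif4g3 (0.98 ± 0.05, adjusted p = 9.05e-13) and Eif1ax (0.98 ± 0.04, adjusted p = 1.75e-13). Eif4g3 was at 253, 251 and 263 TPM there and at 121 to 147 in the other neurons, without overlap. Eif4ebp1 (-3.05 ± 0.29, adjusted p = 2.59e-08), Eef2kmt (-2.49 ± 0.13, adjusted p = 6.82e-12), Eef1akmt4 (-2.17 ± 0.23, adjusted p = 1.42e-07) and Pabpc4 (-0.84 ± 0.05, adjusted p = 9.17e-11) had the lowest fold changes among called members. Eef1a1 was lower by 0.80 ± 0.06 (adjusted p = 2.24e-09).

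In dentate gyrus granule cells 8 members were higher (12.1%, beside 25.9%) and 8 lower (12.1%, beside 16.2%). Eef1a1 rose by 0.82 ± 0.06 (edgeR adjusted p = 7.97e-10) and Eef1a2 fell by 0.78 (adjusted p = 9.00e-11), each without overlap with the other neurons. Also higher were Eif4ebp3 (2.11 ± 0.75, adjusted p = 0.0207), Eef1akmt4 (1.97 ± 0.17, adjusted p = 1.24e-08) and Eef2kmt (1.38 ± 0.10, adjusted p = 9.14e-10), all 3 at 5.17 TPM or less. Eif5a2 (-0.92 ± 0.09, adjusted p = 3.41e-08) and Eif1a (-0.65 ± 0.04, adjusted p = 4.39e-10) were lower, as was Eif4ebp1 (-0.62 ± 0.25, adjusted p = 0.0381), which overlapped and lost its call in 7 alternatives, among them those without dentate gyrus replicate 2 or 3 (-0.69 and -0.40), cerebellar granule cell replicate 3 (-0.41) or interneuron replicate 1 (-0.57). Without dentate gyrus replicate 1 or 3 Eif4ebp3 lost its call too (2.08 and 1.88).

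Interneurons and layer V neurons had the fewest calls. In interneurons 2 members were higher (3.03%, beside 26.4%) and 5 lower (7.58%, beside 15.6%), with a median of -0.14 against 0.08; on log2(TPM + 1) 2 were called higher and 1 lower. There Eef2k was at -1.24, and the other members that edgeR called were under the minimum: Eif4enif1 at -0.43, Eef1akmt1 at -0.49, Pabpc1 at -0.39, Eif4a3 at -0.36, Eif4ebp1 at 0.15 and Eef2kmt at 0.40. Eef2k was lower by 1.55 ± 0.06 (edgeR adjusted p = 6.98e-14), followed by Eif4enif1 (-0.71 ± 0.04, adjusted p = 5.34e-11), Eef1akmt1 (-0.64 ± 0.06, adjusted p = 1.39e-08) and Pabpc1 (-0.61 ± 0.06, adjusted p = 7.90e-08). Eif4ebp1 (0.71 ± 0.21, adjusted p = 0.00675) and Eef2kmt (0.55 ± 0.10, adjusted p = 1.43e-04) were higher on the scale of mean log counts but overlapped the other neurons, and Eif4ebp1 lost its call without interneuron replicate 1 (0.57). Eef2kmt was at 0.36, under the minimum, within batch 2. Mean Eif4ebp1 was 1.20 TPM in interneurons, below layer V neurons (3.47) and above dentate gyrus and cerebellar granule cells (0.55 and 0.12). Mean Eef2kmt was 3.19 TPM, below dentate gyrus granule cells (4.935) and above layer V neurons and cerebellar granule cells (2.47 and 0.54). Eef1a1 (-0.11) and Eef1a2 (-0.29) were under the fold minimum. These were the libraries with the highest mean TPM of Mbp, Mobp and Mog, whose part was not tested.

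In layer V neurons 3 members were higher (4.55%, beside 25.8%) and 3 lower (4.55%, beside 20.4%), with medians of 0.05 and 0.04; with upper-quartile factors 6 were higher and 2 lower and on log2(TPM + 1) 1 and 12. Eif4ebp1 was higher by 2.96 ± 0.18 (edgeR adjusted p = 7.16e-11) and Eif1a by 0.74 ± 0.04 (adjusted p = 2.20e-11), both without overlap, though Eif1a was at 0.45, under the minimum, on log2(TPM + 1). Eef2kmt was higher by 0.56 ± 0.10 (edgeR adjusted p = 1.17e-04) on the scale of mean log counts, with overlap. Its mean of 2.47 TPM lay above cerebellar granule cells (0.54) but below interneurons (3.19) and dentate gyrus granule cells (4.935). The call was lost without layer V replicate 1 (0.43) or cerebellar granule cell replicate 2 (0.48). It was also lost in 3 settings that used batch 2 libraries (0.38 to 0.47), with protein-coding transcripts only (0.35) and on log2(TPM + 1) (0.04). Gspt1 (-0.89 ± 0.06, adjusted p = 1.02e-10) and Eif4ebp2 (-0.88 ± 0.05, adjusted p = 1.23e-10) were lower without overlap, and Eef2k (-0.56 ± 0.05, adjusted p = 3.30e-08) with it, the latter at -0.49 with upper-quartile factors and -0.43 within batch 2. Eef1a1 and Eef1a2 were at 0.09 each, not called.

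10 members are textbook TOP mRNAs, whose leader begins with a run of pyrimidines and whose translation is governed by mTORC1 through LARP1. Between glia and neurons 3 were higher (Eef1a1, Pabpc1 and Eef1b2, beside 39.1% of all genes) and 1 lower (Eif4b, beside 26.8%). The other 6 were not called, and the median was 0.31 against 0.18. Without microglia Eef1a1, Pabpc1 and Eef1b2 were at 0.41, -0.05 and 0.09, and within batch 1 at 0.46, -0.13 and 0.15, all under the fold minimum. Eif4b fell under it with DESeq2, RLE and upper-quartile factors. In microglia against astrocytes 4 were higher in microglia (30.0% of all genes) and none in astrocytes (33.1%), with a median of -0.36, astrocytes minus microglia. In cerebellar granule cells 3 were lower than in other neurons (35.9% of all genes) and none higher (25.3%).

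Regulators outside the members were counted from lists of textbook genes, each count standing beside 39.1% of all genes higher and 26.8% lower in glia. Of 8 genes for eIF2 kinases, their regulators and phosphatase subunits, Eif2ak2, the double-stranded RNA sensor PKR, was higher in glia (3.78 ± 0.10, edgeR adjusted p = 6.19e-17), and Impact (-1.74 ± 0.04, adjusted p = 5.99e-18), an inhibitor of the kinase GCN2, and Ppp1cc (-0.68 ± 0.03, adjusted p = 1.54e-12) were lower. Of 13 genes of the mTORC1 and MNK arm, 3 were higher, led by the eIF4E kinase Mknk1 (1.79 ± 0.04, adjusted p = 4.37e-17) and Rps6kb2 (1.54 ± 0.10, adjusted p = 7.73e-11), and 3 lower, led by Rps6kb1 (-0.94 ± 0.03, adjusted p = 3.81e-15) and Rheb (-0.60 ± 0.03, adjusted p = 3.56e-12). Impact was at 382 TPM on average in interneurons and 26.5 to 173 in the other types, and Mknk1 at 131 TPM in microglia and 12.1 to 36.2 in the other types.

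Of 9 other initiation and recycling factors, 5 were lower in glia and none higher, led by the helicases Dhx36 (-1.42 ± 0.03, edgeR adjusted p = 1.20e-17) and Ddx3x (-1.01 ± 0.09, adjusted p = 4.25e-09). Of 9 enzymes that make hypusine on eIF5A or diphthamide on eEF2, Dnajc24 was higher (1.81 ± 0.05, adjusted p = 4.17e-16) and 3 were lower, led by Dohh (-0.77 ± 0.03, adjusted p = 2.50e-13) and Dph6 (-0.62 ± 0.05, adjusted p = 1.71e-09). Of 9 targets of the integrated stress response, 4 were higher in glia and 2 lower. Psat1, a serine synthesis enzyme at 418 TPM in astrocytes and 3.74 to 39.4 in the other types (3.05 ± 0.03, adjusted p = 7.03e-22), and the factor Atf5 (1.43 ± 0.05, adjusted p = 1.70e-14) led the first, and asparagine synthetase Asns (-2.87 ± 0.04, adjusted p = 4.68e-20) and Chac1 (-2.67 ± 0.09, adjusted p = 3.31e-15) were the second, so this list did not move in 1 direction.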

How the data were processed

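RiboTag mRNA libraries were sequenced paired-end from a stranded kit. The authors trimmed reads with cutadapt 3.5, quantified them with kallisto 0.46.2 against GENCODE M24 (GRCm38), and deposited estimated counts per transcript, not normalized, and TPM per transcript. Here both were summed per gene, in 1 library per replicate (batch 1 where both existed; 18 of 22), and estimated counts were rounded. edgeR 4.0.16 (R 4.3.3; filterByExpr, TMM, quasi-likelihood, cell type as the sole factor, 18 libraries in 1 fit) gave log2 fold changes, with SE taken as the size of the fold over the square root of F, and Benjamini-Hochberg adjusted p over all genes; it was checked on simulated counts. Fold changes are on TMM-scaled counts and levels on TPM, which need not keep the same order. Alternatives used limma 3.58.1, DESeq2 1.42.0 and other filters, scalings, batches and sample sets. Coordinates, exons and sequences came from GENCODE M21 (GRCm38), which held 70 of 70 genes and 440 of 441 member transcripts. Genes named were Eef1a1 and Eef1a2, then up to 3 called members per role and direction (glia against neurons) or 4 per direction (other comparisons), up to 2 per direction and regulator list, and transcripts whose share of a gene's TPM differed by at least 30 points between cell types (genes of at least 20 TPM); not-called members and paralogue pairs were added after their values were seen. The members, lists and tests were chosen with earlier results of these data known. Among the 18 libraries used, no 2 replicates of a cell type agreed within sampling noise. The repeat runs in batch 2 were not put through this check. In 1 replicate sequenced in both batches, the sex given by the labels differed between the libraries. The summed level of 1 marker list is not reported here.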

Additional observations from a re-analysis of the deposited data

How the results depend on the processing

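Counts of called members stayed within 1.5 times the value reported under other normalizations, count filters, batches, a sex term and left-out cell types, except as follows. On log2(TPM + 1), 13 members were called in layer V neurons (6 in the edgeR fit) and 3 in interneurons (7); the cause was not tested. With the adjusted p alone, the members called were 60 for glia against neurons, 59 for astrocytes against microglia and 51 for dentate gyrus granule cells. They were 46 for layer V neurons, 52 for cerebellar granule cells and 46 for interneurons. With a 2-fold minimum they were 11, 10, 3, 1, 4 and 1 in that order, and 29 for any difference. These counts were not set beside the share of all genes called at the same thresholds, so they describe the members alone. Leaving out each replicate gave 23 to 25, 31 to 36, 15 to 17, 6 to 8, 21 to 27 and 6 to 9 in the same order, 61 to 65 for any difference, and -45.3 to -41.4 percentage points for the Eef1a2 share. That share differed by -43.9 points within batch 2 (p = 0.1, two-sided exact permutation test, the smallest 3 against 3 libraries allow), by -41.2 within batch 1 and by -43.4 with cell types as the unit (p = 0.0667, again the smallest possible). Of the fold changes of members named by the rule, 2 of called members reversed, both of Pabpc1 (-0.13 within batch 1 and -0.047 without microglia). A further 46 lost their call and 2045 were counted as unchanged. The 2045 include Eef1a1 and Eef1a2 in layer V neurons and interneurons, which were not called and so had no call to keep. A change of sign in those was not counted as a reversal. Replicate numbers were not taken as pairs. Same-number correlations were -0.10 to 0.11, with a median of 0.04 against -0.02 between different numbers. However, 15 of 18 libraries correlated best with their own number, so whether replicates of a number share structure was not settled. With the replicate block the counts were 23, 33, 16, 6, 21, 7 and 61 (any difference), as without it. Each number occurs once in each cell type, so the block could move the fold changes little. What limits these data is the 3 libraries per cell type, 1 Cre driver per type, the overlap of batch with interneurons and microglia, and scaling: the median of all genes between glia and neurons lay at 0.18 with TMM and -0.05 on log2(TPM + 1). Tamoxifen and tissue add to these limits. Cre was induced with tamoxifen in the glial types alone, so the drug and the division into glia and neurons cannot be told apart. Both glial types came from cortex, as did layer V neurons, but the other neurons came from hippocampus or cerebellum.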
